A study of Homo sapiens with 372 samples.

Results

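The 10 genes described here, MDM2, CDKN1A, GDF15, BAX, TNFRSF10B, TP53I3, FDXR, SESN1, ZMAT3 and RPS27L, are known targets of the transcription factor p53, and were taken by symbol from the 9664 genes of a single-cell RNA-seq table of drug-treated A2780 cells. A2780 cells are an established line of human ovarian carcinoma, and they were detached with trypsin before capture, 1 library per cell. The cells were untreated (control), treated with 5 nM paclitaxel for 16 h or 48 h, with 75 µM celecoxib for 2 h or 16 h, or with 5 nM paclitaxel and 75 µM celecoxib together for 16 h (combination). The comparisons ask how single cells of one line respond to each drug and to the pair of drugs. The sources used here name no replicate culture and no capture run for the cells of a condition. Each condition was therefore counted as 1 sample, its cells are not replicates, no test was made between conditions, and a condition cannot be told apart from the culture and capture its cells came from.

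p53 is held at a low level in unstressed cells by MDM2, a ubiquitin ligase whose own gene p53 switches on. DNA damage, faulty mitosis, ribosomal stress and other insults release p53, which binds DNA as a tetramer and switches on genes for cell cycle arrest, apoptosis, redox control and p53 turnover. Paclitaxel stabilizes microtubules and disturbs mitosis, and celecoxib inhibits cyclooxygenase 2.

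A p53 response element is a pair of half-sites of 10 bases. Windows of 5 kb to either side of the gene starts of GENCODE version 44 were searched on hg38 for a pair with no spacer, with the fixed C and G of each half-site kept and at most 2 of the other bases off the consensus, which reads the same on both strands. Such a match lay in 5 of the 9 windows of the p53 targets searched and in 7.42% of the 9320 windows of all genes searched, and TNFRSF10B was not searched. A match with no base off lay in 1 of the 9 windows, that of ZMAT3, and in 0.161% of all windows. The 5 matches are shown because they are candidate contacts of the factor that names this gene group. They are written 5′ to 3′ on the strand of the gene, with the 20 matched bases in capitals.
CDKN1A, chr6:36676444-36676473, plus strand: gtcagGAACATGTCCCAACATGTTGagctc
GDF15, chr19:18373942-18373971, plus strand: gcctcAGACCTGCCCGGACATGTCCaagtc
MDM2, chr12:68808918-68808947, plus strand: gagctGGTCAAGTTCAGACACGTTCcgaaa
BAX, chr19:48955208-48955237, plus strand: cccccGGGCAGGCCCGGGCTTGTCGcccgc
ZMAT3, chr3:179070183-179070212, minus strand: tcataAAACAAGTCCAGACATGCCTaggca

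The CDKN1A match was centred 2256 bases before the RefSeq start of the gene and 2 bases before the earliest start in GENCODE. The MDM2 match lay in an intron, 84 bases before the nearest of the 4 RefSeq starts of the gene, and the ZMAT3 match lay in an intron, 856 bases before the nearest of its 2 RefSeq starts. The GDF15 match was 774 bases before the earliest GENCODE start but 12202 bases before the RefSeq start, and the BAX match lay in an exon, 348 bases after the RefSeq start. The bases off the consensus were 2 for CDKN1A, MDM2 and BAX and 1 for GDF15. A match describes the letters of the window only, and binding was not measured in these data.

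In GENCODE version 44 on hg38 the genes lie at chr6:36676460-36687337 (CDKN1A, plus strand), chr19:18374731-18389176 (GDF15, plus), chr12:68808177-68845544 (MDM2, plus), chr19:48954815-48961798 (BAX, plus), chr2:24077433-24085861 (TP53I3, minus), chr6:108984309-109094846 (SESN1, minus), chr3:178960121-179072215 (ZMAT3, minus), chr15:63125872-63158021 (RPS27L, minus), chr17:74862497-74873031 (FDXR, minus) and chr8:23020133-23069031 (TNFRSF10B, minus). Smart-seq2, which copies polyA-tailed RNA along its full length, does not mark strand, and exons of 5 of these genes overlap exons on the other strand: those of CDKN1A with DINOL, MDM2 with CPM, TP53I3 with FAM228B, SESN1 with ENSG00000271730 and TNFRSF10B with RHOBTB2. Reads from such a pair cannot be told apart. Of the 31-base words in the transcripts of RPS27L 11.3% also occur in other genes, and 9.12% of those of MDM2, against at most 3.64% for the other 8 genes.

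The retained cells were 46 control cells, 56 and 53 cells with 16 and 48 h in paclitaxel, 63 and 61 with 2 and 16 h in celecoxib, and 59 with the combination. The read depth is unknown, and the median number of genes detected per cell was between 6126 and 6630 in the 6 conditions. Values are E-values, log2(N/10 + 1), where N is a TPM scaled by the authors to a spike-in RNA, so levels are per transcript length and can be set side by side between genes. On this deposited scale the whole transcriptome shifts: the median difference from control over all genes was −0.41 and −0.26 after 16 and 48 h in paclitaxel, −0.26 and −0.48 after 2 and 16 h in celecoxib, and 0.33 with the combination. Each difference is therefore also given after every cell was set to the same total, where these medians were −0.07, 0.00, −0.02, 0.03 and 0.02. Of 10 marker genes of a cultured carcinoma line 2 had a row (KRT18 and VIM), and of 9 markers of blood, endothelial and fibroblast cells 2 had a row (LYZ and COL1A2). The mean E-value in the 6 conditions was 1.90 to 3.70 for VIM, 0.45 to 1.11 for KRT18, 0.11 to 0.24 for LYZ and 0.20 to 0.96 for the fibroblast gene COL1A2. LYZ was detected in 37.0 to 60.7% and COL1A2 in 10.7 to 32.8% of the cells, and the part of other cell types in the results was not tested.

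In the control cells the p53 targets spanned a wide range of levels. RPS27L was the most abundant, with a mean E-value of 5.82 ± 1.09 (SD over 46 cells), followed by TP53I3 at 2.69 ± 1.53, MDM2 at 2.18 ± 1.72 and TNFRSF10B at 1.53 ± 1.18. SESN1 (0.96 ± 1.23), CDKN1A (0.95 ± 2.06), BAX (0.93 ± 1.15) and GDF15 (0.70 ± 1.87) lay close together, and FDXR (0.41 ± 0.86) and ZMAT3 (0.27 ± 0.48) were lowest. Apart from the step from RPS27L to TP53I3, neighbours in this order differed by less than 1 SD over cells.

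Many of these genes had an E-value of 0 in part of the cells, which the mean hides. The share of cells with an E-value above 0 was therefore counted, with exact Clopper-Pearson 95% intervals that cover counting error only. A gene is called on in a cell where it was detected, that is, above 0. An E-value of 0 can be a missed transcript as well as a silent gene, and these cannot be told apart here. RPS27L was detected in all cells of 5 conditions and in 55 of 56 cells after 16 h in paclitaxel. MDM2 and TNFRSF10B were on in most cells of every condition, at 67.8 to 91.8% and 80.3 to 91.1%. CDKN1A was on in 23.9 to 67.9% of the cells, GDF15 in 17.4 to 91.8%, and FDXR in at most 34.0%.

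**Figure D1:**
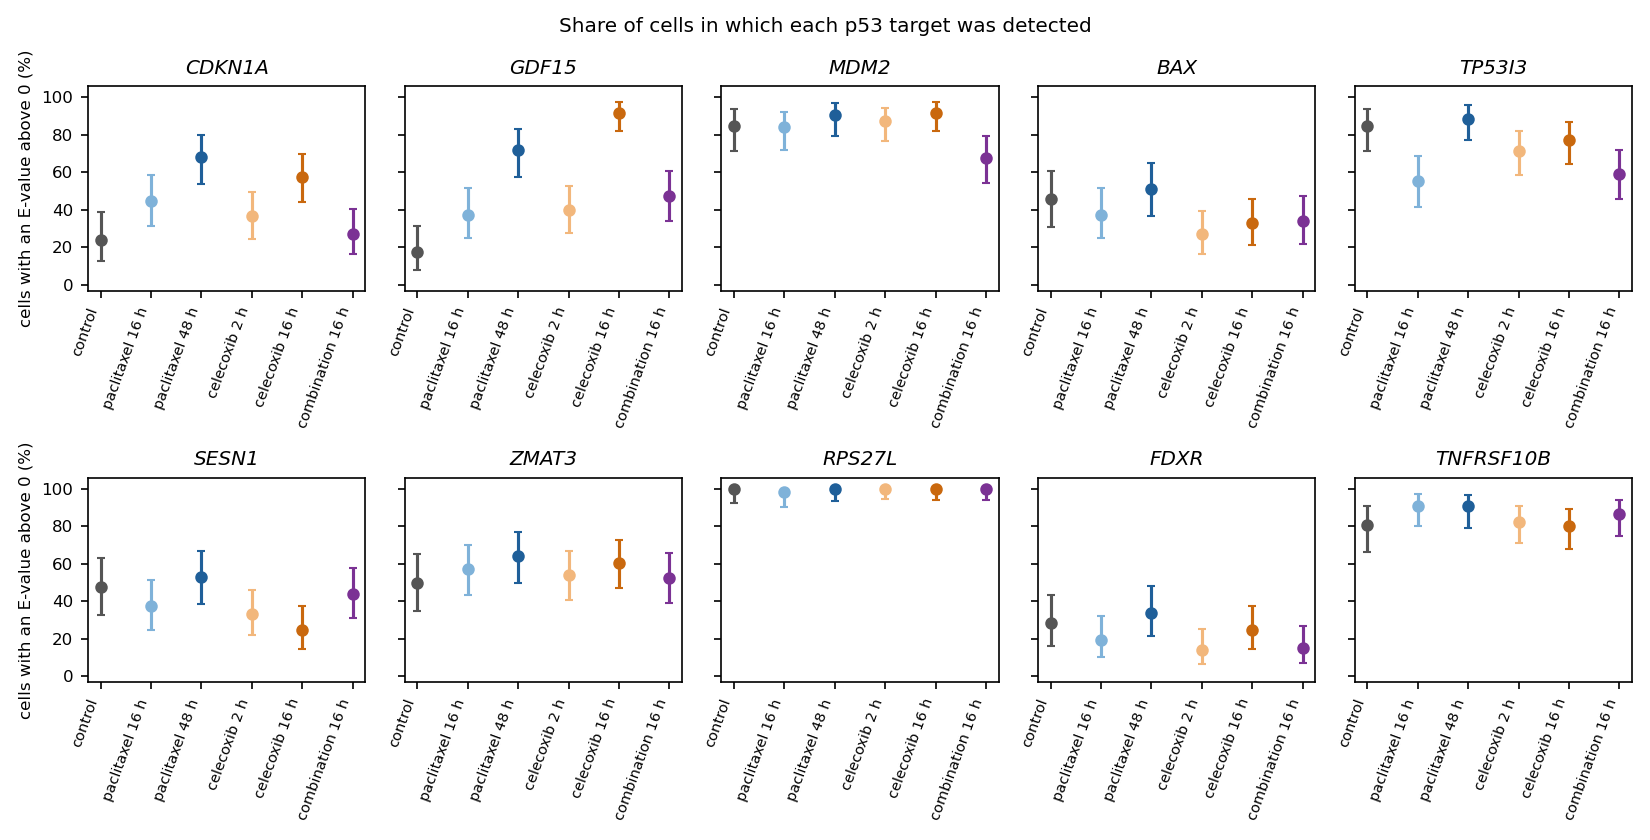
Share of cells with an E-value above 0 (y axis, percent) for each of the 10 genes in the 6 conditions (x axis), with exact 95% binomial intervals as bars. GDF15 runs from 17.4% of the control cells to 91.8% after 16 h in celecoxib, whereas RPS27L stays at or above 98.2%.

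CDKN1A encodes p21, the inhibitor of cyclin-dependent kinases through which p53 arrests the cell cycle. In the control it was detected in 11 of 46 cells (23.9%, interval 12.6 to 38.8%), with a median E-value of 0 and a highest cell at 8.75. After 48 h in paclitaxel it was detected in 36 of 53 cells (67.9%, 53.7 to 80.1%), with a median of 2.88 and a highest cell at 7.20. After 16 h in celecoxib 35 of 61 cells had it (57.4%, 44.1 to 70.0%), with a median of 1.75 and a highest cell at 7.01.

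These late conditions were the ones in which CDKN1A was on in most cells. The gene was detected in 44.6% of cells after 16 h in paclitaxel (31.3 to 58.5%), 36.5% after 2 h in celecoxib (24.7 to 49.6%) and 27.1% with the combination (16.4 to 40.3%). The mean E-value was 1.86 above the control after 48 h in paclitaxel and 1.00 above it after 16 h in celecoxib, or 1.96 and 1.5 at the same total per cell. On the scale log2(N/10 + 1) the latter are 3.89-fold and 2.84-fold, and this scale shrinks changes of low values. The log2 ratio of linear means (means of N) was smaller, at 0.61 after 48 h in paclitaxel and −0.46 after 16 h in celecoxib. Without the highest control cell it was 1.85 and 0.79. At the same total CDKN1A ranked 6th of 9655 genes by its increase after 48 h in paclitaxel and 29th after 16 h in celecoxib.

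The level among the cells that had CDKN1A depended on the scaling. Their mean E-value was 3.99 in the control, 4.14 after 48 h in paclitaxel, 3.40 after 16 h in celecoxib and 4.00 with the combination, and with every cell at the same total it was 3.48, 4.11, 4.07 and 2.66. With the combination a single cell at 9.71 carried 76.3% of the summed linear CDKN1A signal of that condition, and the next highest was at 5.69. One control cell carried 58.8% of the summed linear CDKN1A signal of the control, and the same cell carried 80.0% of that of GDF15. The log2 ratio of linear means was −1.42 after 16 h in paclitaxel, −1.92 at 2 h and −0.46 after 16 h in celecoxib for CDKN1A, opposite in direction to the mean E-values. Without that cell the linear ratio was −0.17, −0.67 and 0.79.

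This untreated cell stood out among the control cells. It had E-values of 8.75 for CDKN1A, 9.04 for GDF15, 5.47 for MDM2, 3.96 for SESN1, 3.37 for FDXR and 3.70 for BAX, the highest control value of all of these except MDM2, and 9 of the 10 targets were detected in it. With 6371 genes detected it was not deeper than the median control cell (6630).

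GDF15 encodes a secreted stress cytokine that both p53 and the integrated stress response switch on. It was detected in 8 of 46 control cells (17.4%, 7.82 to 31.4%), 38 of 53 cells after 48 h in paclitaxel (71.7%, 57.7 to 83.2%) and 56 of 61 cells after 16 h in celecoxib (91.8%, 81.9 to 97.3%). The median E-value was 0 in the control, 3.43 after 48 h in paclitaxel and 3.45 after 16 h in celecoxib, and the highest cells were at 9.04, 9.15 and 7.70.

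GDF15 was thus not detected in most control cells and on in nearly every cell after 16 h in celecoxib. It was detected in 37.5% of cells after 16 h in paclitaxel (24.9 to 51.5%), 39.7% after 2 h in celecoxib (27.6 to 52.8%) and 47.5% with the combination (34.3 to 60.9%). The mean E-value differed from the control by 0.56 and 2.72 after 16 and 48 h in paclitaxel, 0.86 and 2.49 after 2 and 16 h in celecoxib, and 1.6 with the combination, and by 0.62, 2.81, 0.87, 3.22 and 1.08 at the same total. It was the gene with the largest increase of all 9655 after 48 h in paclitaxel and ranked 2nd after 16 h in celecoxib, on both scales. As for CDKN1A, the linear means gave the opposite direction after 16 h in paclitaxel (−0.96) and 2 h in celecoxib (−0.58), and 1.32 and 1.71 without the control cell above.

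The smaller of these differences depended on the number of genes detected per cell. Among cells with 5500 to 7000 genes detected, CDKN1A was on in 45.5 percentage points more cells than in the control after 48 h in paclitaxel and 31.0 points more after 16 h in celecoxib, and GDF15 in 51.0 and 72.6 points more. After 16 h in paclitaxel the difference was 14.0 points for CDKN1A and 9.82 points for GDF15, against 20.7 and 20.1 points in all cells. After 2 h in celecoxib that of GDF15 was 11.0 points, against 22.3.

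**Figure D2:**
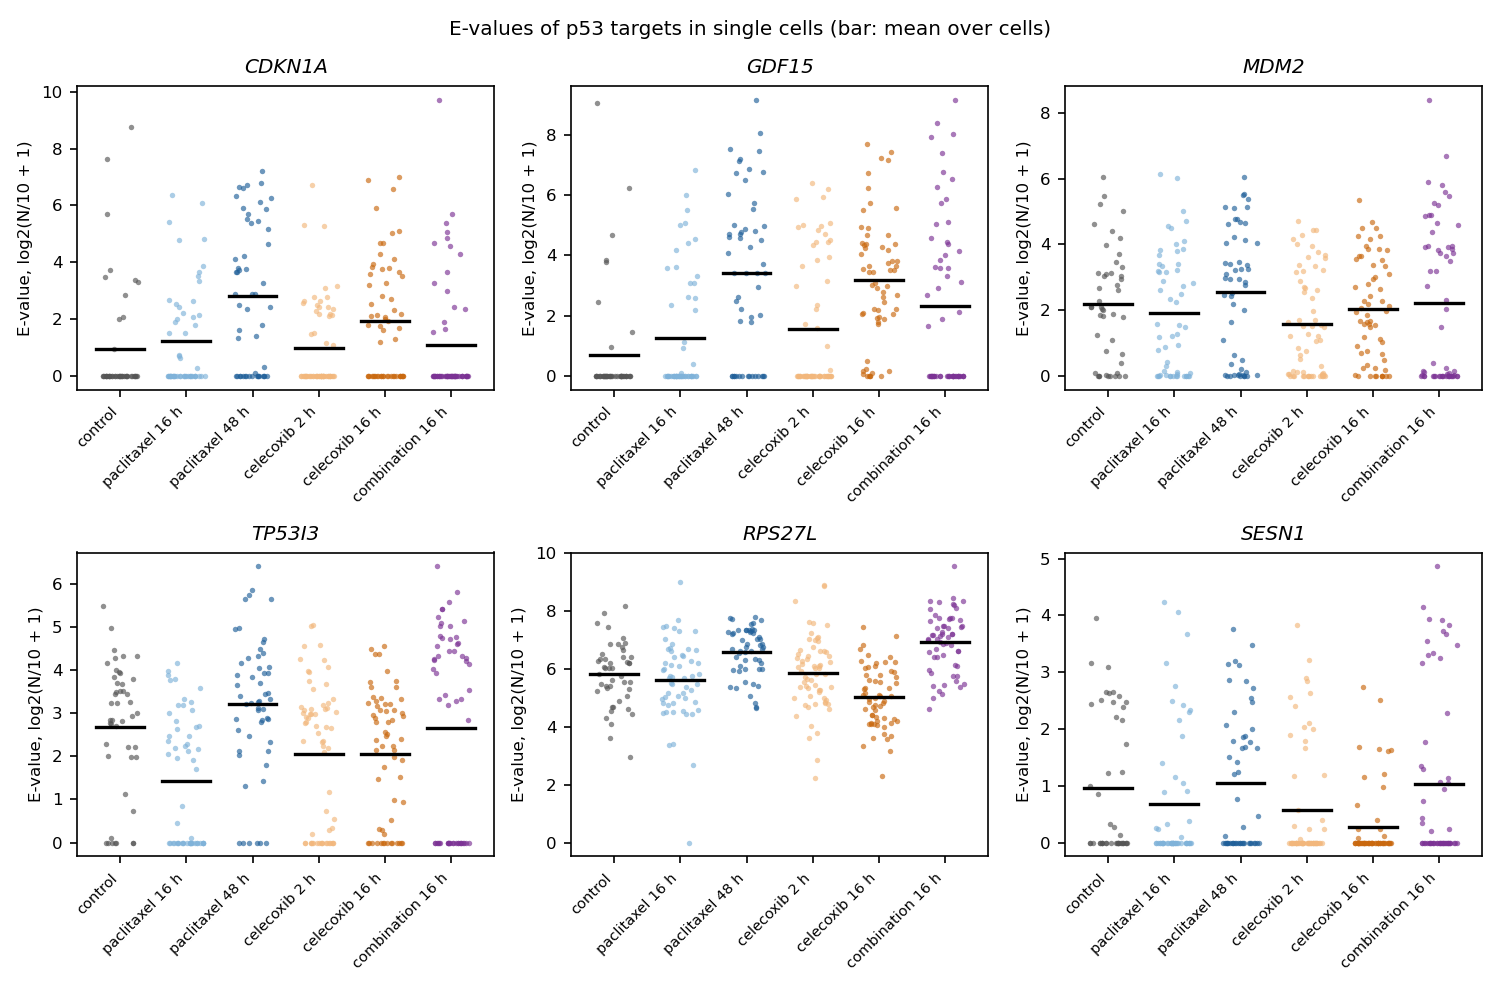
E-values of 6 of the genes (y axes, log2 scale) in every retained cell of the 6 conditions (x axes), with the mean over cells as a bar. CDKN1A and GDF15 show a band of cells at 0 beside cells spread up to 9.71, and RPS27L has a single cell at 0.

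MDM2, which closes the feedback loop on p53, was on in 84.8% of the control cells already, with a median E-value of 2.09. Its share was 83.9 and 90.6% after 16 and 48 h in paclitaxel, 87.3 and 91.8% after 2 and 16 h in celecoxib, and 67.8% with the combination (54.4 to 79.4%, against 71.1 to 93.7% in the control). Many of these detections were near 0, and with an E-value above 1 as the limit the shares were 69.6% in the control and 50.8 to 68.9% in the treatments. The mean E-value of MDM2 was 0.37 above the control after 48 h in paclitaxel and 0.15 below it after 16 h in celecoxib. At the same total per cell both differences were above the control and past the limit of 1.5-fold, at 0.77 and 0.74, so that the direction after 16 h in celecoxib depends on the scaling.

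Among the genes of cell death, BAX encodes a protein that opens the outer mitochondrial membrane, and TNFRSF10B encodes the TRAIL receptor DR5. BAX was detected in 45.7% of the control cells and in 27.0 to 50.9% of the treated cells. TNFRSF10B was detected in 80.4% of the control cells, with a mean E-value of 1.53. Its mean was 1.21 and 1.96 after 16 and 48 h in paclitaxel, 1.46 and 1.33 after 2 and 16 h in celecoxib, and 2.36 with the combination. On the deposited scale the combination gave the largest difference (0.83), but at the same total it was 0.33, and 48 h in paclitaxel gave 0.73.

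TP53I3 encodes a quinone oxidoreductase. It was detected in 39 of 46 control cells (84.8%, 71.1 to 93.7%) and in 31 of 56 cells after 16 h in paclitaxel (55.4%, 41.5 to 68.7%). After 48 h in paclitaxel it was on in 47 of 53 cells (88.7%, 77.0 to 95.7%). The mean E-value went from 2.69 in the control to 1.44 at 16 h and 3.21 at 48 h, so the gene lay below the control at the early time and above it at the late time. At the same total the differences were −0.71 and 0.96, both past the limit. With the combination TP53I3 was on in 59.3% of cells (45.8 to 71.9%), and on the deposited scale the lowest value among cells that had it was 2.84, against 0.10 in the control.

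FDXR, the ferredoxin reductase that feeds electrons to mitochondrial cytochrome P450 enzymes, was detected in 28.3% of the control cells, 34.0% after 48 h in paclitaxel and 14.3 to 24.6% elsewhere. SESN1 encodes a stress sensor that restrains mTORC1 signalling. It was detected in 22 of 46 control cells (47.8%, 32.9 to 63.0%) and 15 of 61 cells after 16 h in celecoxib (24.6%, 14.5 to 37.3%), and its highest cell was at 3.96 in the control and 2.74 after 16 h in celecoxib. Its mean E-value there was 0.68 below the control, or 0.42 below it at the same total, which is within the limit.

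RPS27L, a close relative of ribosomal protein S27 with a part in p53 turnover, was on throughout, and its differences were in level. The mean E-value was 5.82 ± 1.09 in the control, 6.59 ± 0.84 after 48 h in paclitaxel, 5.03 ± 1.05 after 16 h in celecoxib and 6.93 ± 1.03 with the combination. The lowest cells were at 2.94, 4.63, 2.31 and 4.62. At the same total RPS27L lay above the control in every treatment, by 0.60 and 1.39 after 16 and 48 h in paclitaxel, 0.58 (just within the limit) and 0.57 after 2 and 16 h in celecoxib, and 0.42 with the combination, whereas on the deposited scale it was 0.20 below the control after 16 h in paclitaxel and 0.79 below it after 16 h in celecoxib.

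ZMAT3 encodes an RNA-binding zinc finger protein that acts on splicing and mRNA stability. It was detected in 50.0 to 64.2% of cells, but at very low levels, with a mean E-value among detected cells of 0.33 to 0.78. An E-value above 1 was reached in 4 of 46 control cells (8.70%), 11 of 53 cells after 48 h in paclitaxel (20.8%), 11 of 59 with the combination (18.6%) and at most 7.94% of the cells of the other treatments. The largest difference of its mean from the control came after 48 h in paclitaxel, at 0.18 on the deposited scale, or 0.24 with totals made equal.

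Each treatment was then read against a limit of 1.5-fold (0.585 on the log2 scale) in the mean E-value, and each share of cells against a limit of 20 percentage points, with the percentage of all 9655 genes past the same limit in the same direction as the background. All 10 targets were among these genes. After 16 h in paclitaxel none of the 10 was up on the deposited scale (background 0.0932%) and TP53I3 was down (37.3%). Once totals were equal, GDF15 and RPS27L were up (1.4%) and TP53I3 was down (10%). By detected share CDKN1A and GDF15 were up (2.27%) and TP53I3 was down (7.79%).

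After 48 h in paclitaxel CDKN1A, GDF15 and RPS27L were up on the deposited scale (0.922%) and none was down (26.6%). On equal totals, 6 of the 10 were up, with MDM2, TP53I3 and TNFRSF10B added (3.28%), and none was down (5.78%). The authors had already listed CDKN1A, GDF15, TP53I3 and TNFRSF10B among genes raised in a part of these same cells. These counts are therefore not independent of that earlier result. By detected share CDKN1A and GDF15 were up (2.53%) and none was down (7.2%). The median difference of the 10 genes at the same total was 0.75, beside 0.00 for all genes, and all 10 values were above 0.

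After 2 h in celecoxib GDF15 was up on the deposited scale (1.12%), and MDM2 and TP53I3 were down (25.7%). With cells at an equal total, GDF15 was up (3.31%) and none was down (8.12%), and the same held by detected share (3.28% up and 8.23% down). After 16 h in celecoxib CDKN1A and GDF15 were up on the deposited scale (0.383%), and TP53I3, SESN1 and RPS27L were down (43.9%). With totals made equal, CDKN1A, GDF15 and MDM2 were up (7.37%) and none was down (7.95%), and by detected share CDKN1A and GDF15 were up (3.07%) and SESN1 was down (10.8%). The median of the 10 genes at the same total was −0.03 at 2 h and 0.41 at 16 h.

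With the combination GDF15, RPS27L and TNFRSF10B were up on the deposited scale, where 30.4% of all genes were up, and none was down (1.76%). Once totals were equal, GDF15 alone was up (5.96%) and none was down (5.8%). By detected share GDF15 was up (2.8%) and TP53I3 was down (7%). The median of the 10 genes was 0.10 on the deposited scale, beside 0.33 for all genes, and −0.10 at the same total, beside 0.02. All these comparisons share the same 46 control cells.

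**Figure D3:**
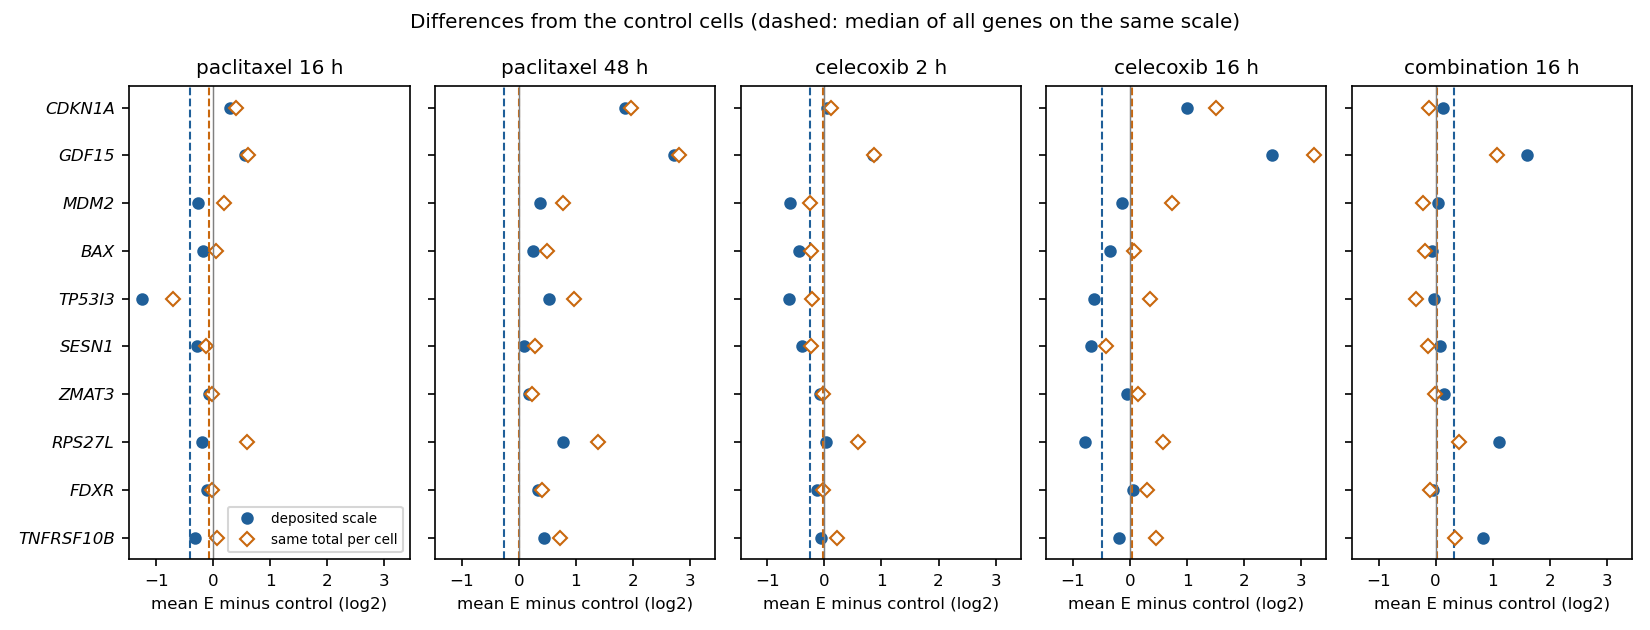
Difference of the mean E-value from the control (x axes, log2) for the 10 genes (rows) in the 5 treatments, on the deposited scale (filled circles) and at the same total per cell (open diamonds), with the median of all genes as dashed lines. After 48 h in paclitaxel all 10 diamonds lie to the right of 0, and GDF15 after 16 h in celecoxib is farthest right at 3.22.

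Setting the combination beside each drug alone at 16 h showed CDKN1A and GDF15 apart. On equal totals, the combination was below celecoxib alone by 1.62 for CDKN1A and 2.13 for GDF15, and by 0.96 for MDM2 and 0.69 for TP53I3, beside a median of −0.01 over all genes. On the deposited scale CDKN1A and GDF15 were also lower, by 0.87 and 0.89, but MDM2 and TP53I3 were 0.19 and 0.60 higher, beside a median of 0.88 over all genes. The share of cells was 30.3 points lower for CDKN1A (27.1 against 57.4%) and 44.4 points lower for GDF15 (47.5 against 91.8%). Against paclitaxel alone at 16 h the combination differed by −0.51 for CDKN1A and 0.47 for GDF15 at the same total.

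The later time was higher than the earlier one for most of the genes with paclitaxel. From 16 to 48 h the difference at the same total was 2.19 for GDF15, 1.68 for TP53I3, 1.56 for CDKN1A and 0.79 for RPS27L, and all 10 differences were above 0, with a median of 0.07 over all genes. From 2 to 16 h in celecoxib it was 2.35 for GDF15, 1.39 for CDKN1A and 1.00 for MDM2, while SESN1 was 0.18 lower. The cells of 48 h in paclitaxel came from 2 blocks of library numbers. In block 2 and block 4 the same-total difference from the control was 1.87 and 2.03 for CDKN1A and 2.88 and 2.75 for GDF15, but 0.41 and 1.35 for TP53I3 (−0.09 and 0.95 on the deposited scale) and 1.28 and 0.41 for MDM2. All control cells were in block 4. The cells of 16 h in paclitaxel were all in block 1, and those of 2 and 16 h in celecoxib in blocks 2 and 3. The combination was in blocks 1 and 3. None of these treatments shared a block with the control, so their differences from it cannot be told apart from block.

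Counting the targets cell by cell, the median cell had 5 of the 10 on in the control, after 16 h in paclitaxel and with the combination, 6 at both times of celecoxib and 8 after 48 h in paclitaxel. At least 8 were on in 27 of 53 cells after 48 h in paclitaxel (50.9%, 36.8 to 64.9%), in 7 of 46 control cells (15.2%, 6.34 to 28.9%) and in 15 of 61 cells after 16 h in celecoxib (24.6%, 14.5 to 37.3%). All 10 were on in 5 cells after 48 h in paclitaxel, 3 after 16 h in paclitaxel, 2 after 16 h in celecoxib and 1 control cell.

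CDKN1A and GDF15 tended to be on in the same cells. After 48 h in paclitaxel 30 cells had both and 9 had neither, and GDF15 was on in 83.3% of the cells with CDKN1A and 47.1% of those without. In the control the 2 shares were 45.5 and 8.57%, after 16 h in paclitaxel 60.0 and 19.4%, after 2 h in celecoxib 65.2 and 25.0%, after 16 h in celecoxib 94.3 and 88.5%, and with the combination 81.2 and 34.9%. Cells with both also had more of the other 8 targets, with a mean of 6.80 ± 0.84 (SD over 5 cells) against 4.84 ± 1.22 (32 cells with neither) in the control and 6.27 ± 1.34 (30 cells) against 4.67 ± 1.00 (9 cells) after 48 h in paclitaxel. The median number of all genes detected was also higher in the cells with both, at 6642 against 6564 in the control and 6509 against 5911 after 48 h in paclitaxel, and its part in the result was not tested.

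**Figure D4:**
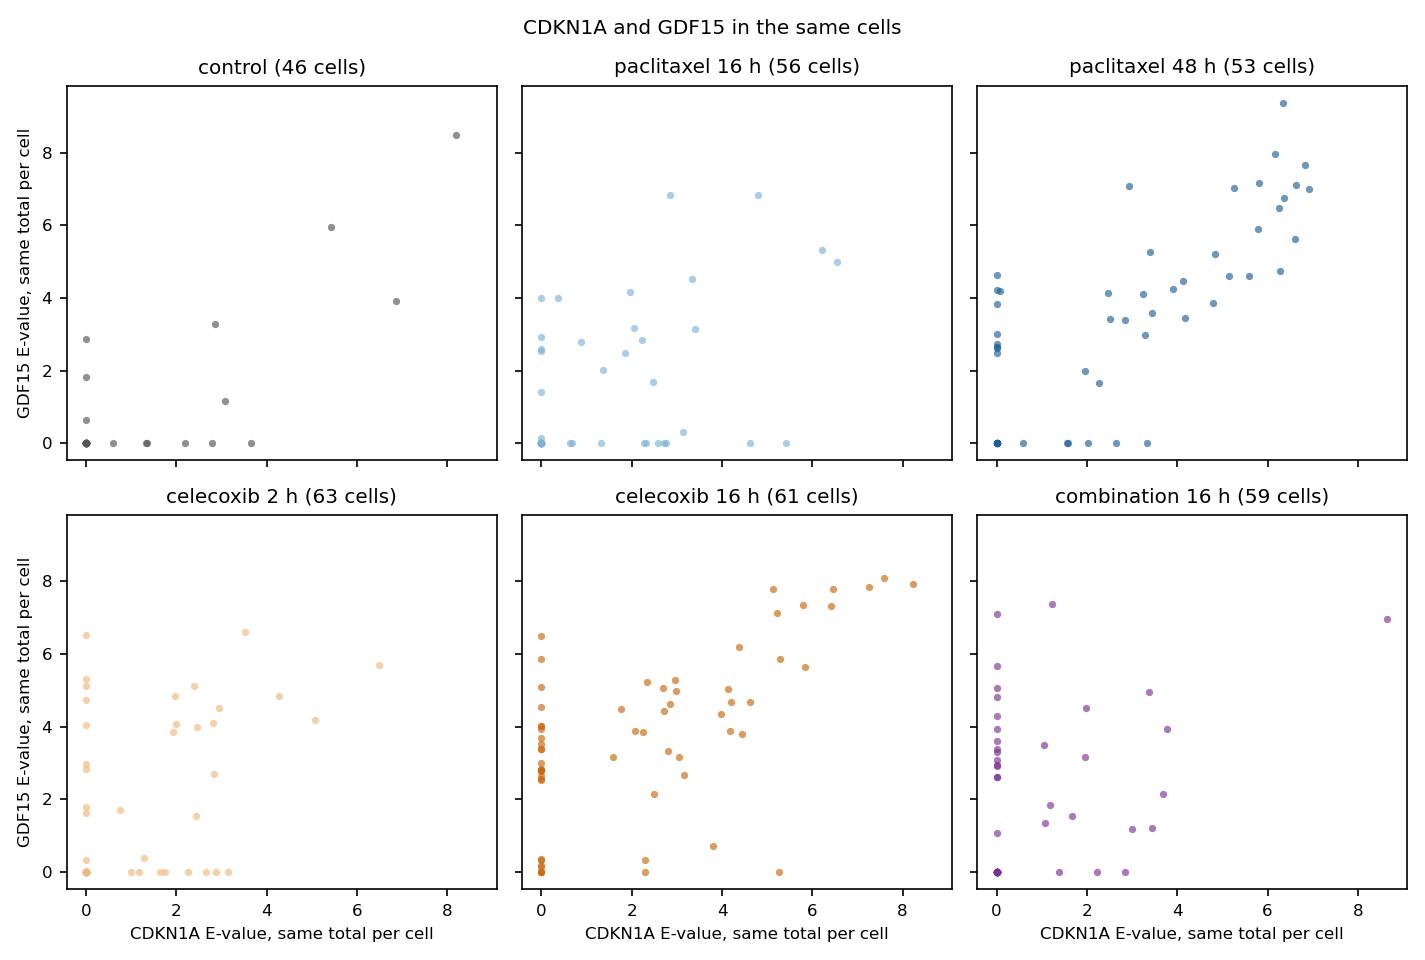
E-values of CDKN1A (x axes) and GDF15 (y axes) at the same total per cell, 1 point per cell, in the 6 conditions. In cells at 0 on an axis that gene was not detected, and Pearson's r between the genes was 0.82 in the control, 0.77 after 48 h in paclitaxel and 0.36 with the combination.

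Correlations over cells were taken at the same total per cell after the mean of each condition was subtracted, and are descriptions, since the cells of a condition are not replicates. Over 338 cells CDKN1A and GDF15 had an r of 0.60. Within the conditions r was 0.82 in the control (0.71 without the high control cell), 0.52 and 0.77 after 16 and 48 h in paclitaxel, 0.50 and 0.61 after 2 and 16 h in celecoxib, and 0.36 with the combination. All 45 pairs among the 10 targets were above 0, with a median of 0.16, whereas the median over all pairs of 8719 genes detected in at least 30% of cells was 0.01. Of those 38006121 pairs, 21246586 were above 0. FDXR was detected in too few cells to be among the 8719 genes. Most of the 45 values were weak. The r of CDKN1A with the log2 total of the cell was 0.19 and that of GDF15 0.20.

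The genes whose pattern over cells was most like that of CDKN1A were, after GDF15, BTG2 (r = 0.44, an antiproliferative gene), ASCC3 (0.39, a helicase of the alkylation damage response), RPS27L (0.39) and SESN1 (0.38). For GDF15 they were, after CDKN1A, BTG2 (0.41), MDM2 (0.33), DDB2 (0.33, damage recognition in nucleotide excision repair) and AEN (0.32, an apoptotic nuclease). All of these are in the lists of known p53 targets, which hold 61 (0.70%) of the 8719 genes compared. Of the 20 genes closest to CDKN1A and of those closest to GDF15, 15 were in these lists, against 10 for SESN1, 9 for MDM2 and FDXR, 7 for TNFRSF10B, 5 for BAX, 4 for TP53I3 and RPS27L and 0 for ZMAT3.

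**Figure D5:**
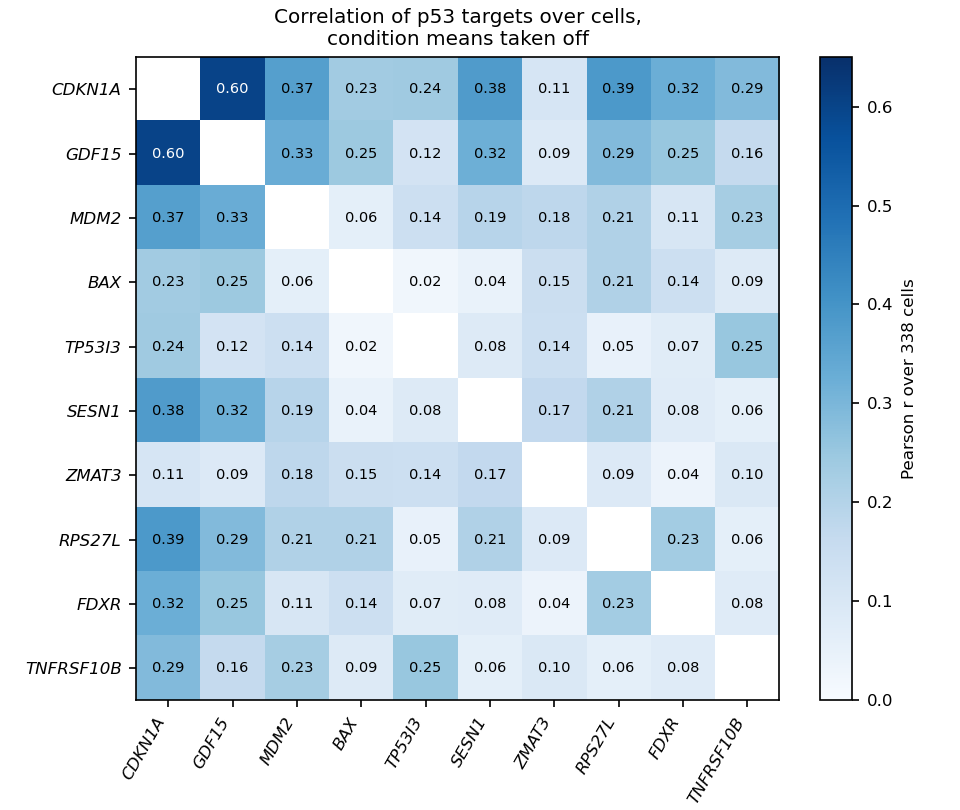
Pearson's r over 338 cells between each pair of the 10 genes, at the same total per cell and with condition means taken off. CDKN1A with GDF15 is the darkest cell at 0.60, and the lowest pair is BAX with TP53I3 at 0.02.

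The authors' deposited annotation gives a state for each paclitaxel cell, which was itself derived from expression in these cells. By detected share the targets did not all go in one direction between the states. After 16 h in paclitaxel 5 of the 10 were detected in a higher share of the cells in the state they call Control than in the state they call Suppressive, and 5 in a lower share. Several of these gaps were small, such as 82.6 and 83.9% for MDM2 and 34.8 and 35.5% for BAX. The widest gaps at 16 h, those of CDKN1A, SESN1 and GDF15, were toward higher shares in Control cells. At 48 h 6 were higher, 3 lower and 1 equal. The mean E-value at 16 h was higher in Control cells for all targets but TP53I3 on the deposited scale. At the same total BAX, TP53I3, RPS27L and TNFRSF10B were lower in them. RPS27L was at 5.86 in Control and 5.28 in Suppressive cells, but at 5.73 and 5.97 at the same total. At 48 h all but BAX, SESN1 and ZMAT3 were higher on the deposited scale. With totals made equal, MDM2, BAX, SESN1, ZMAT3 and RPS27L were lower. CDKN1A was on in 14 of 23 Control and 9 of 31 Suppressive cells at 16 h (60.9 and 29.0%) and in 21 of 28 and 15 of 25 cells at 48 h (75.0 and 60.0%). SESN1 was on in 52.2 and 22.6% of these cells at 16 h but in 50.0 and 56.0% at 48 h. GDF15 was on in 47.8 and 25.8% at 16 h and in 75.0 and 68.0% at 48 h. TP53I3 was on in 47.8 and 58.1% at 16 h and in 96.4 and 80.0% at 48 h.

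Of 17 genes of p53 regulation with a row, 1 was up at the same total, the damage kinase ATM after 2 h in celecoxib (0.76). This was 5.88% of the 17, beside 3.31% of all genes. The medians of the 17 in the 5 treatments lay between −0.10 and 0.01. Those down were 1 and 2 after 16 and 48 h in paclitaxel, 2 and 4 after 2 and 16 h in celecoxib, and 0 with the combination. As shares of the 17 these were 5.88, 11.8, 11.8, 23.5 and 0%, beside 10, 5.78, 8.12, 7.95 and 5.8% of all genes. On the deposited scale 35.3, 29.4, 35.3, 52.9 and 0% of the 17 were down, beside 37.3, 26.6, 25.7, 43.9 and 1.76% of all genes. There 1 (5.88%) was up after 2 h in celecoxib, beside 1.12%, and 5 (29.4%) with the combination, beside 30.4%. Among those down at the same total, the checkpoint kinase CHEK2 was at −0.75 after 48 h in paclitaxel and −0.98 after 16 h in celecoxib, the ubiquitin ligase RCHY1 at −0.84 and −0.78, and the kinase CHEK1 at −1.16 and the ribosomal protein RPL11 at −0.84 after 16 h in celecoxib. The acetyltransferase KAT5 was at −0.61 after 16 h in paclitaxel. CHEK1 is also counted below among the cell cycle genes that p21 is known to shut off.

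Of 58 other known p53 targets with a row, 1 and 8 were up after 16 and 48 h in paclitaxel at the same total, 1 and 10 after 2 and 16 h in celecoxib, and 2 with the combination, with 6, 0, 4, 1 and 4 down. In this order the shares up were 1.72, 13.8, 1.72, 17.2 and 3.45%, beside 1.4, 3.28, 3.31, 7.37 and 5.96% of all genes. Those down were 10.3, 0, 6.90, 1.72 and 6.90%, beside 10, 5.78, 8.12, 7.95 and 5.8%. The list medians were 0.19 and 0.12 after 48 h in paclitaxel and 16 h in celecoxib, against −0.06 to 0.01 in the other treatments. These counts depend on the scaling: on the deposited scale 0, 2, 1, 1 and 16 were up and 16, 5, 11, 17 and 1 down, with medians of −0.34, −0.01, −0.23, −0.27 and 0.27. On that scale the shares up were 0, 3.45, 1.72, 1.72 and 27.6%, beside 0.0932, 0.922, 1.12, 0.383 and 30.4% of all genes. The shares down were 27.6, 8.62, 19.0, 29.3 and 1.72%, beside 37.3, 26.6, 25.7, 43.9 and 1.76%. The mTOR inhibitor gene DDIT4 was up in every treatment, from 0.78 after 16 h in paclitaxel to 3.77 after 16 h in celecoxib. NINJ1, which encodes a protein of membrane rupture, was at 0.77 after 48 h in paclitaxel and 1.45 after 16 h in celecoxib, and the damage gene GADD45A at 0.77 and 0.95. The replication clamp PCNA was down at 2 h (−0.80) and 16 h (−1.0) in celecoxib and with the combination (−1.65), TRIAP1 after 16 h in paclitaxel (−0.81), 2 h in celecoxib (−0.94) and with the combination (−1.0), and CDC42SE1 after 16 h in paclitaxel (−0.96), 2 h in celecoxib (−0.67) and with the combination (−0.65).

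Downstream of p21, 34 cell cycle genes that p21 is known to shut off were read on the same scale. None was up in any treatment, and 14 and 21 were down after 16 and 48 h in paclitaxel, 18 and 24 after 2 and 16 h in celecoxib, and 21 with the combination, with medians of −0.44, −0.69, −0.66, −1.05 and −0.87. Of all genes, 10, 5.78, 8.12, 7.95 and 5.8% were down by the same limit. On the deposited scale, too, none of the 34 was up, and 25, 30, 26, 32 and 17 were down, or 73.5, 88.2, 76.5, 94.1 and 50.0%, beside 37.3, 26.6, 25.7, 43.9 and 1.76% of all genes. The mitotic genes CDC20 and AURKB were at −2.08 and −1.87 after 48 h in paclitaxel, −2.23 and −3.22 after 16 h in celecoxib and −2.82 and −2.32 with the combination. CDKN1A itself was within the limit with the combination (−0.11), after 16 h in paclitaxel (0.40) and after 2 h in celecoxib (0.11). In these treatments 21, 14 and 18 of the 34 genes were down. The cyclins CCNB1 and CCNB2 were at −1.82 and −1.47 and the ubiquitin conjugating enzyme UBE2C and the reductase RRM2 at −1.56 and −1.54 after 2 h in celecoxib. Over cells, the r of CDKN1A with the mean of these genes was −0.0945.

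GDF15, TNFRSF10B and DDIT4 are also known targets of the integrated stress response, the ATF4 and CHOP pathway. Of 20 of its genes with a row, 1 and 5 were up after 16 and 48 h in paclitaxel at the same total, 15 and 18 after 2 and 16 h in celecoxib and 13 with the combination, and 3, 0, 0, 0 and 1 were down, with medians of −0.09, 0.33, 1.13, 1.29 and 0.78. Of all genes, 1.4, 3.28, 3.31, 7.37 and 5.96% were up by the same limit. The shares of the 20 that were down were 15, 0, 0, 0 and 5%, beside 10, 5.78, 8.12, 7.95 and 5.8%. On the deposited scale 0, 3, 12, 9 and 17 of the 20 were up, beside 0.0932, 0.922, 1.12, 0.383 and 30.4% of all genes. There 9, 1, 1, 1 and 1 were down, or 45, 5, 5, 5 and 5%, beside 37.3, 26.6, 25.7, 43.9 and 1.76%. After 2 h in celecoxib DDIT3, which encodes CHOP, was at 1.96, TRIB3 at 1.43, ASNS at 2.85, CHAC1 at 2.04 and SLC3A2 at 1.34, and GDF15 was at 0.87 and CDKN1A at 0.11. After 48 h in paclitaxel DDIT3 was at 0.61, TRIB3 at 0.37, ASNS at 1.5, CHAC1 at 0.87 and SLC3A2 at 0.14, while GDF15 was at 2.81 and CDKN1A at 1.96. Over cells DDIT3, named here after its value was seen, was among the 20 genes closest to GDF15, with an r of 0.28.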

How the data were processed

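Smart-seq2 libraries of single A2780 cells captured on the Fluidigm C1 were analysed. No capture run or replicate culture is named, so each condition was counted as 1 sample. The authors trimmed reads with Trim Galore, mapped them with Bowtie2 to GENCODE version 28 transcripts (hg38) and 3 spike-in RNAs, obtained TPM from RSEM 1.3.0 and scaled it to the highest spike-in. What they deposited is the log2 of this scaled TPM (N), as E = log2(N/10 + 1), and 9655 of the 9664 genes pass a filter of detection in 30% of some condition. Between 0 and 12 labelled cells per condition have no values and were not analysed here.

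From these values the mean E-value, its SD over cells and the share of cells above 0 were computed here per condition, on the deposited scale and with every cell at the same total. The genes named are the 10 targets, the 5 genes closest to CDKN1A and to GDF15, and of each list the 6 with the largest difference past 1.5-fold. The markers are named besides, and 1 gene of these lists is not reported here. The members, gene lists and limits were chosen with earlier results of these data known. Doublets were not called, since the values are not counts. The 1.5-fold calls on means and the correlation were tested on simulated data. For the calls, known changes were planted only in genes with higher control means than CDKN1A, GDF15, SESN1, BAX, FDXR and ZMAT3. The planted changes were well past 1.5-fold, so calls near the limit were not checked. The correlation was computed for CDKN1A against a copy of itself with added noise, which checks the calculation only. The detected share was not simulated. GENCODE version 44 and RefSeq starts gave positions. Software was numpy 2.4.6, scipy 1.17.1, pandas 2.3.3 and matplotlib 3.10.9 under Python 3.11.15. The alternatives were another scaling, linear means, a pseudocount of 1, medians, index blocks, well notes, detection filters and limits, and a depth window, and those that leave out 1 control cell were added after seeing the data.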

Additional observations from a re-analysis of the deposited data

Results flagged for a closer look

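Each condition was counted as 1 sample of 46 to 63 cells, so no test for a sample far from others of its group was made. Results were looked up where a gene passed the limit in opposite directions in 2 conditions, and the differences between them were not tested. RPS27L was −0.79 from the control after 16 h in celecoxib and 1.11 with the combination on the deposited scale, where the median over all genes was −0.48 and 0.33, and at the same total it was 0.57 and 0.42. TP53I3 was −0.71 from the control at 16 h and 0.96 after 48 h in paclitaxel at the same total, and in the 2 blocks of library numbers at 48 h it was 0.41 (22 cells) and 1.35 (31 cells).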

How the results depend on the processing

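With each condition counted as 1 sample there is no replicate check, and E-values give no read depth. Dropping the well noted as empty or debris, no filter or a 50% filter moved no count by over 1.5 times, and neither did blocks 2 and 4 after 48 h in paclitaxel. The cause of the changes below was not tested. The share of all genes past the limit was counted only for the deposited scale, the same total and the share of cells above 0. Counts under the other alternatives therefore have no background and are not results about these genes as a group. With the combination 30.4% of all genes were up on the deposited scale. Against counts up of 0, 3, 1, 2 and 3 (in the order 16 and 48 h in paclitaxel, 2 and 16 h in celecoxib, combination), the same total per cell gave 2, 6, 1, 3 and 1, linear means 0, 7, 0, 1 and 7, a pseudocount of 1 gave 2, 6, 1, 2 and 3, and medians over cells gave 5 after 48 h in paclitaxel and 0 after 2 h in celecoxib. Against counts down of 1, 0, 2, 3 and 0, the same total gave 0 at both times of celecoxib, linear means 6 after 16 h in paclitaxel and 5 after 2 h in celecoxib, a pseudocount of 1 gave 2, 0, 4, 4 and 1, and medians 1 at both times of celecoxib. Without the highest control cell 1 gene was up after 16 h in paclitaxel and 1 down after 2 h in celecoxib, and linear means then gave 1, 9 and 9 up after 16 and 48 h in paclitaxel and with the combination, and 2, 4 and 5 down after 16 h in paclitaxel and 2 and 16 h in celecoxib. By detected share, an E-value above 1 left 0 up after 16 h in paclitaxel and 1 down (BAX) after 2 h in celecoxib. Cells with 5500 to 7000 genes left 0 up after 16 h in paclitaxel and 2 h in celecoxib, with 1 down (SESN1) at 2 h and 2 with the combination, and blocks 1 and 3 of the combination gave 2 and 3 down. Single genes changed direction with linear means for CDKN1A (−1.42, −1.92 and −0.46 after 16 h in paclitaxel and 2 and 16 h in celecoxib), GDF15 (−0.96 and −0.58 after 16 h in paclitaxel and 2 h in celecoxib) and TP53I3 with the combination (0.72). With linear means and the highest control cell left out together, they did so for CDKN1A after 2 h in celecoxib (−0.67) and, with the combination, TP53I3 (0.76) and FDXR (0.95). Leaving out that cell alone reversed 0 of them. At the same total they did so for RPS27L (0.60 and 0.57 after 16 h in paclitaxel and 16 h in celecoxib), and for MDM2 (0.74) and TP53I3 (0.35) after 16 h in celecoxib.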
